A study of Mus musculus with 6 samples.

Results

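Immunoglobulin light chain segments were followed across expression arrays of CD4+ CD25+ cells from mouse spleen, a fraction rich in regulatory T cells (Treg cells). The members were all rows of the deposited table that carry exactly 1 gene symbol, starting with Igkv, Igkc, Igkj, Iglv, Iglc or Iglj, and 87 of the 65528 rows met this rule. They were 86 kappa variable segments (Igkv) and 1 kappa joining segment (Igkj3). No kappa constant row and no lambda row carried a single symbol, because those genes share rows with other segments. In all, 16 rows that list such a symbol among several were set aside. Most of these list kappa variable segments, and 2 are shared with a gene that is not a light chain gene. RefSeq listed 79 of the variable segments as V segments and 7 as V segment pseudogenes.

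The Keap1_KO group held 3 arrays (replicates B, C and D), labelled Keap1 -/-, from VAVcre/Keapfl/fl mice, in which Cre under the Vav promoter acts on a floxed Keap1 in blood-forming cells, B lineage cells included. The WT group held 3 arrays (replicates A, D and F), labelled Keap1 +/+, and whether these mice carried Cre is not given. All mice were untreated males on the C57BL/6 background, and the cells came from the spleen by magnetic separation. The series title writes CD4- CD25+ where the sample labels write CD4+ CD25+. The stated age of the mice also conflicts: the characteristics give 10 to 12 months, and the growth protocol 6 to 10 weeks. The labels do not say whether the arrays of a group came from separate mice, so the p-values reflect only how far these arrays differ, which may be technical.

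Antibody light chains are made by B cells and, in far larger amounts, by the plasma cells that descend from them. A developing B cell joins a single variable segment to a joining segment, and the joined exon is spliced to the constant region, so that each clone of cells expresses its own variable segment. In the mouse most light chains are kappa chains. T cells rearrange the T cell receptor loci instead and do not make antibody, so light chain RNA in a CD4+ CD25+ preparation serves as a readout of B lineage cells or their RNA. The name of a kappa segment gives its sequence family before the hyphen and its place in the locus after it.

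Values are log2 expression values as deposited, differences are Keap1_KO minus WT on that scale, and each row has its own probes, so values are compared between arrays within a row. The lowest value of the table was 1.88 and the highest 19.93, and array medians over all rows lay between 5.16 and 5.43. Of the T cell markers, Cd3e averaged 15.74 in Keap1_KO and 14.79 in WT cells and Cd4 averaged 12.81 and 11.78 in the same order. Il2ra, which encodes CD25, averaged 13.88 in Keap1_KO and 13.93 in WT cells. Keap1 read 4.87, 4.89 and 4.70 on Keap1_KO B, C and D, against 5.30, 5.41 and 5.77 on WT A, D and F (limma adjusted p = 0.68). All 3 Keap1_KO values lay below all 3 WT values, as in 8.45% of all rows, and the WT values lay near the array medians. Whether its probes lie outside the floxed part was not tested. Light chain rows were mostly above the middle of the arrays: 75 of 87 lay at or above the array median on all 6 arrays, and 3 lay below it on all 6. That median is over all 65528 rows, of which 33056 carry no symbol. The number of light chain rows at or above the 90th percentile of an array ran from 10 on Keap1_KO B to 60 on Keap1_KO D.

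The light chain rows differed more between single arrays than between genotypes. Keap1_KO D had the highest value of the 6 arrays in 75 of 87 rows (86.2%), whereas 12.8% of all rows of the table peaked there. Keap1_KO B had the lowest value in 43 rows (49.4%), against 11.7% of all rows. Keap1_KO B, C and D had median light chain levels of 7.23, 8.49 and 11.63, against 7.53, 9.05 and 7.91 for WT A, D and F. The arrays with the lowest and the highest level were therefore both Keap1_KO arrays, and the 3 WT arrays lay between them. Within WT, replicate D was the highest of the 3 arrays in 77 rows.

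**Figure D1:**
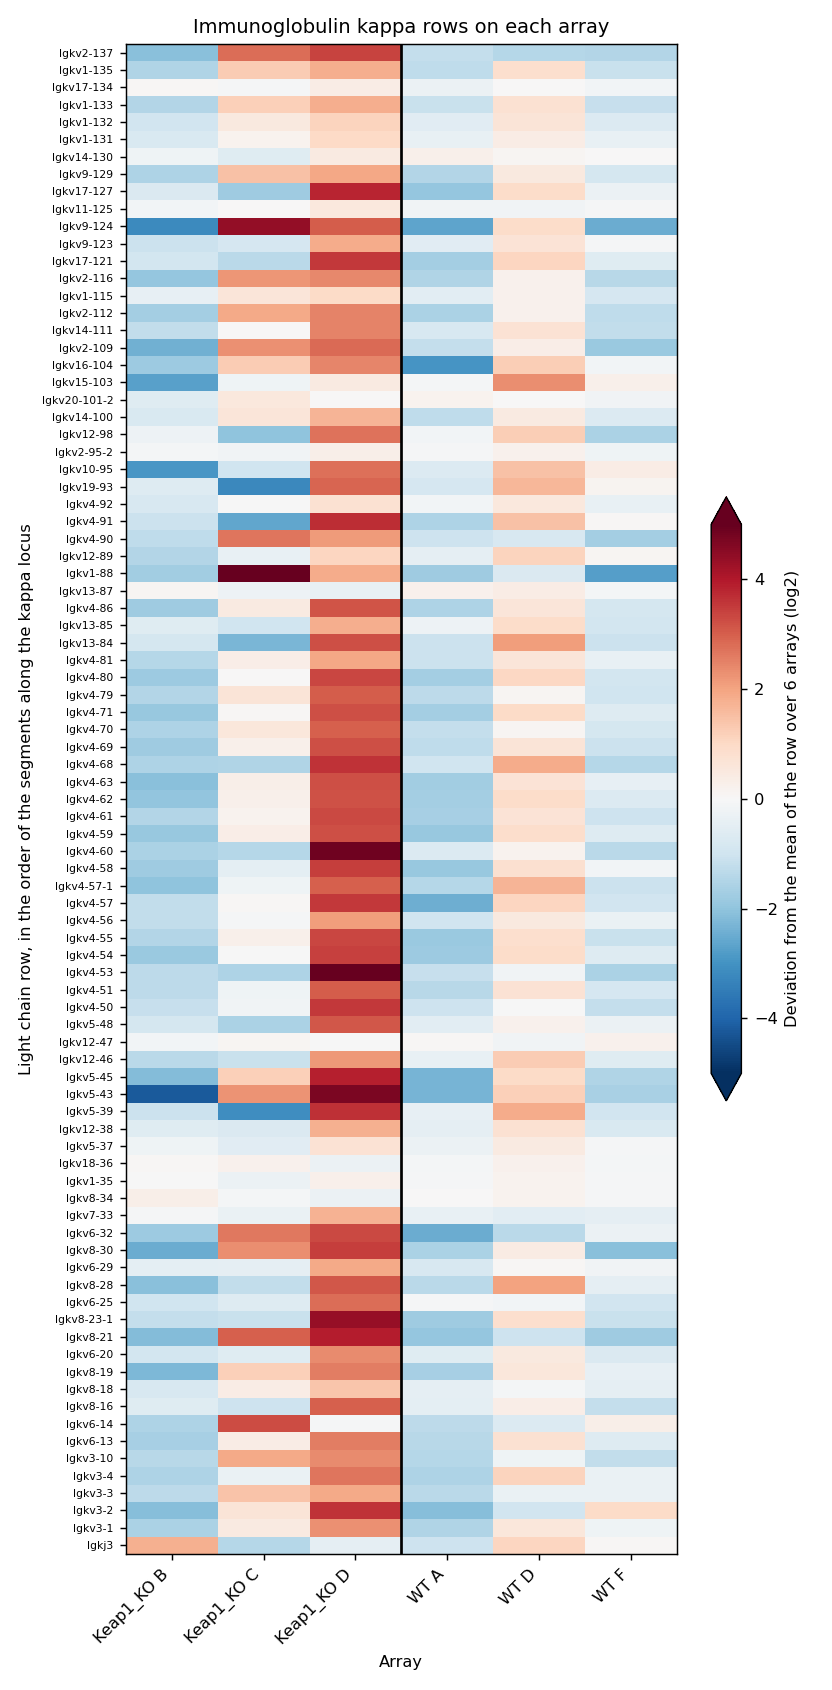
Deviation of each of the 87 light chain rows (vertical axis, in the order of the segments along the kappa locus) from its own mean over 6 arrays, on the log2 scale, for 3 Keap1_KO and 3 WT arrays (horizontal axis). Keap1_KO D is the highest array in 75 rows, and Keap1_KO B and WT A are pale to dark blue over most of the locus, with median deviations of -1.34 and -1.18.

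Compared as groups, the mean of 69 rows (79.3%) was higher in Keap1_KO, against 35.9% of all rows, and that of 18 was lower, and the median difference was 0.86, beside -0.08 over all 65528 rows. None of the 87 rows passed the limma test at an adjusted p under 0.05 (Benjamini-Hochberg over all rows, adjusted p from 0.68 to 0.999), and neither did any other row of the table (0.0% called). At an unadjusted p under 0.05 the limma count of members was also 0, beside 3.32% of all rows called higher and 3.66% called lower. In 1 row, Igkv7-33, all Keap1_KO values lay above all WT values, and in none did they all lie below, against 4.08% and 8.45% of all rows. A mean difference of 1 or more in favour of Keap1_KO was seen in 37 rows (42.5%), against 2.37% of all rows.

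The median difference rested on single arrays. It was -0.17 without Keap1_KO D, 1.66 without Keap1_KO B, 0.38 without WT A and 1.42 without WT D, and 1.38 with array weights. Keap1_KO C and D together lay above all 3 WT arrays in 26 rows (29.9%), against 13.2% of all rows. Keap1_KO B lay below all 3 WT arrays in 46 rows (52.9%), against 23.4% of all rows.

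Spread within a genotype was the main feature of these rows. The median residual standard deviation between arrays of a genotype was 1.78 for the light chain rows and 0.26 for all rows, or 0.39 for all rows at or above the median row mean. Within Keap1_KO the median SD of a light chain row was 2.25, and within WT it was 1.01. The 6 arrays spanned more than 4 log2 units in 51 light chain rows (58.6%), against 0.737% of all rows. Igkv5-43 had the widest range, 8.87, which was also the widest of the whole table.

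**Figure D2:**
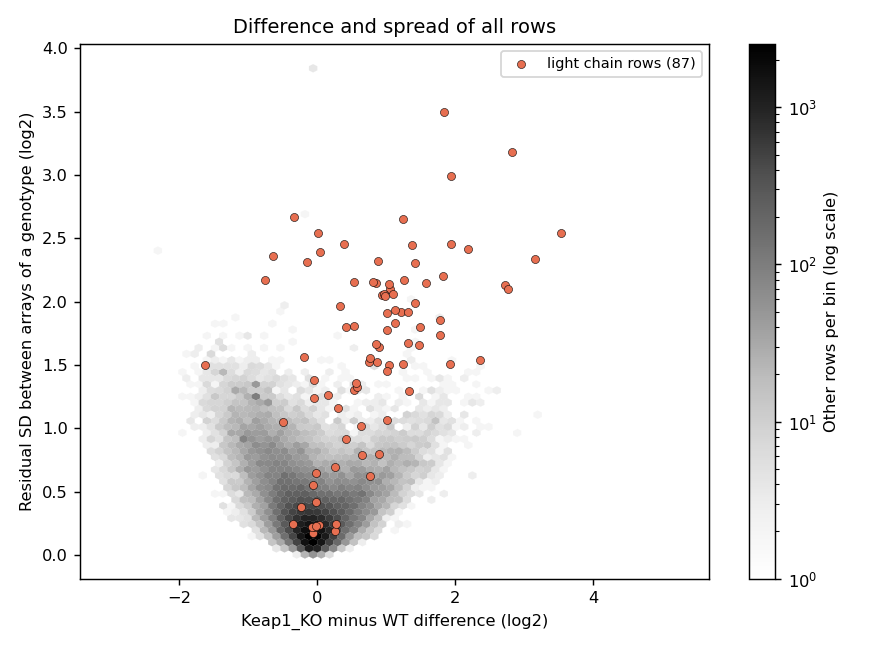
Keap1_KO minus WT difference (horizontal axis, log2) against the residual SD between arrays of a genotype (vertical axis, log2) for the 87 light chain rows (orange) and all other rows (grey bins, darker with more rows). Most light chain rows lie to the right of 0 and high on the vertical axis, with a median difference of 0.86 and a median residual SD of 1.78.

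Of the 10 rows with the highest mean, 9 had Keap1_KO B as the lowest array and 9 had Keap1_KO D as the highest, while the place of Keap1_KO C varied. Igkv1-135 read 13.84, 16.59 and 17.14 on Keap1_KO B, C and D, against 14.07, 16.16 and 14.21 on WT A, D and F. Its neighbour Igkv1-133 of the same family read 12.80, 15.45 and 16.08, against 13.16, 15.03 and 13.12. In both rows the groups overlapped, with Keap1_KO B lowest for Igkv1-135 as for Igkv1-133, and with WT D within 0.5 of Keap1_KO C. Igkv1-135 averaged 15.85 ± 1.77 in Keap1_KO and 14.81 ± 1.17 in WT (SD, n = 3 each), a difference of 1.04 with a limma adjusted p of 0.742. These variable segments encode the part of the kappa chain that contacts antigen, as all Igkv segments do.

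Igkv5-43 read 8.50, 14.91 and 17.36 on Keap1_KO B, C and D, against 10.34, 13.88 and 11.06 on WT A, D and F. Keap1_KO B was the lowest array and Keap1_KO D the highest, so the WT values lay inside the Keap1_KO range. The means were 13.59 ± 4.58 in Keap1_KO and 11.76 ± 1.87 in WT (SD, n = 3 each), a difference of 1.83 (SE 2.32, limma adjusted p = 0.797), which was -0.05 without Keap1_KO D. Igkv16-104 read 10.68, 13.75 and 14.96 on the Keap1_KO arrays and 9.55, 13.72 and 12.36 on the WT arrays, with WT A lowest.

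The Igkv4 family, the largest with 25 rows, moved almost as a block. Of these rows 24 had their highest value on Keap1_KO D and 24 had a higher mean in Keap1_KO. Median deviations from the row means in the family were -1.54, 0.05 and 3.23 on Keap1_KO B, C and D, against -1.41, 0.70 and -0.89 on WT A, D and F. Igkv4-59 illustrates the block, with 10.58, 12.81 and 15.71 on the Keap1_KO arrays against 10.61, 13.36 and 11.83 on the WT arrays (difference 1.10, SE 1.37, limma adjusted p = 0.794). Igkv4-54, Igkv4-62 and Igkv4-71 gave differences of 1.04, 0.98 and 0.93. Without Keap1_KO D these 4 differences turned to -0.24, -0.42, -0.37 and -0.44, in the order in which the rows are named. Members of a family are similar in sequence, and whether the probes separate them was not tested, so the rows are not independent measurements.

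A few rows of the same family departed from the block. Igkv4-53 read 6.97, 6.73 and 14.07 on Keap1_KO B, C and D, against 7.15, 8.12 and 6.70 on WT A, D and F. This row was high on Keap1_KO D alone, and its range of 7.37 was among the 4 widest of the Igkv rows. The row shared by Igkv4-53 and Igkv6-23 was high on Keap1_KO C as well. It read 8.56, 12.60 and 13.01 on Keap1_KO B, C and D, against 8.52, 10.25 and 8.30. Igkv4-60, chosen after its values were seen, was also high on Keap1_KO D alone, with 6.21, 6.36 and 12.65 against 7.11, 7.95 and 6.44. Igkv4-91, also chosen afterwards, was lowest on Keap1_KO C (4.13) and highest on Keap1_KO D (10.39).

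Both Keap1_KO C and Keap1_KO D differed from Keap1_KO B by amounts that varied widely between segments. Relative to Keap1_KO B, Keap1_KO D was higher in 83 rows with a median of 3.98 and an SD over rows of 1.96. Keap1_KO C was higher than Keap1_KO B in 66 rows with a median of 1.25, and lower in 21. The differences between Keap1_KO C and Keap1_KO B ran from -3.20 for Igkj3 to 7.58 for Igkv9-124, with an SD over rows of 2.03. Between Keap1_KO D and Keap1_KO C the SD over rows was 2.06, with Keap1_KO D higher in 78 rows and lower in 9. Between WT D and WT A the SD over rows was 1.07, with WT D higher in 80 rows and a median of 1.56.

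**Figure D3:**
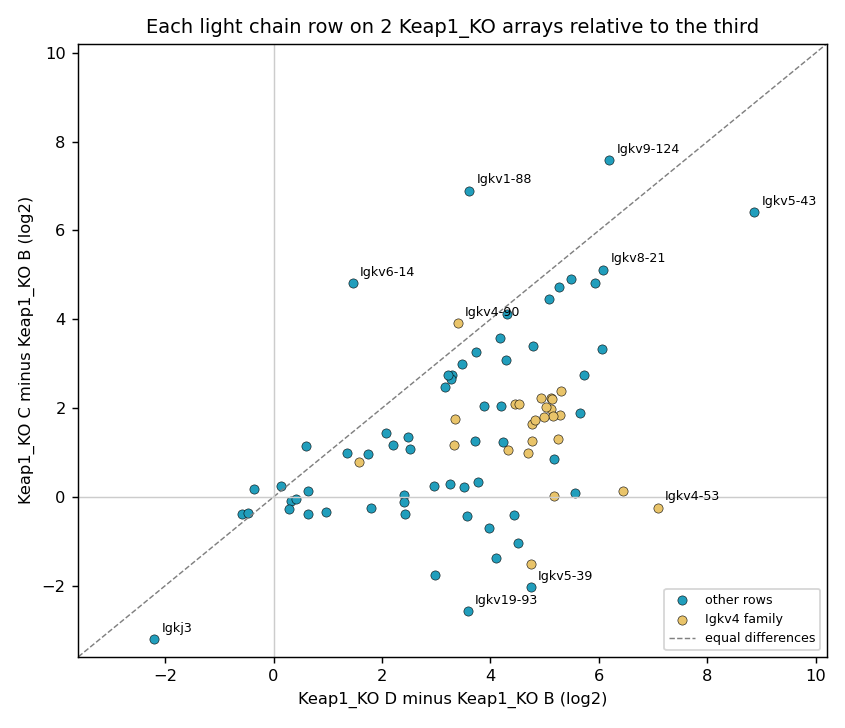
Each point is 1 light chain row, placed by Keap1_KO D minus Keap1_KO B (horizontal axis, log2) and Keap1_KO C minus Keap1_KO B (vertical axis, log2), with the Igkv4 family in yellow and the dashed line marking equal differences. Most rows lie right of 0 and below the line, while Igkv9-124, Igkv1-88, Igkv6-14 and Igkv4-90 lie above it and Igkv19-93 and Igkv5-39 lie below 0 on the vertical axis.

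Igkv1-88 had the largest Keap1_KO minus WT difference. It read 8.07, 14.96 and 11.68 on Keap1_KO B, C and D, against 8.04, 9.07 and 7.04 on WT A, D and F. Keap1_KO C was the highest array, Keap1_KO D followed, and Keap1_KO B lay within the WT range. The means were 11.57 ± 3.45 in Keap1_KO and 8.05 ± 1.02 in WT (SD, n = 3 each), 11.5-fold apart, with a difference of 3.52 (SE 1.69), limma adjusted p of 0.68 and exact two-sided permutation p of 0.2. With 3 arrays against 3 the smallest exact p is 0.1.

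Igkv9-124 followed the same order, with 7.54, 15.12 and 13.72 on Keap1_KO B, C and D, against 8.09, 11.62 and 8.22 on WT A, D and F. Keap1_KO B had the lowest value of the 6 arrays, so the groups overlapped (difference 2.82, SE 2.12, limma adjusted p = 0.703). Igkv9-124 also shares a row with another Igkv9 segment, and that row ran differently. It read 7.30, 7.94 and 12.83 on Keap1_KO B, C and D, against 8.91, 10.25 and 8.02 on WT A, D and F. There Keap1_KO C lay below every WT array, so its high value was seen in the single-symbol row of Igkv9-124 only. Igkv4-90 read 8.58, 12.50 and 11.98 on the Keap1_KO arrays and 8.81, 9.02 and 8.15 on the WT arrays, and its unadjusted limma p of 0.061 was the lowest of the 87 rows (difference 2.36, SE 1.03, adjusted p = 0.68). Igkv6-14, chosen after its values were seen, read 12.74 on Keap1_KO C and 9.39 on Keap1_KO D, and WT F at 9.74 lay above Keap1_KO D. The row shared by Igkv6-14 and Igkv6-15 was high on both, with 13.35 on Keap1_KO C and 12.97 on Keap1_KO D. In all, 9 rows were higher on Keap1_KO C than on Keap1_KO D, and these 4 were the only ones in which Keap1_KO C exceeded every WT array by more than 2 log2 units.

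In another set of rows Keap1_KO C and D were both high and the remaining arrays were low. Igkv8-21 read 8.11, 13.23 and 14.19 on Keap1_KO B, C and D, against 8.35, 9.22 and 8.49 on WT A, D and F. Igkv2-137, the row farthest from the joining segments, read 7.64, 12.54 and 13.12 against 8.56, 8.30 and 8.28. Igkv6-32 read 6.55, 11.00 and 11.63 against 5.87, 6.99 and 8.03. In all 3 rows the WT arrays were low and Keap1_KO B lay with them or below them. The differences were 3.16 (SE 1.55), 2.72 (SE 1.42) and 2.76 (SE 1.40), each with a limma adjusted p of 0.68. In the same order they were 5.02, 4.45 and 4.35 without Keap1_KO B. They fell to 1.98, 1.71 and 1.81 without Keap1_KO D, and to 2.46, 2.00 and 2.12 without Keap1_KO C. The Igkv2 family as a whole (5 rows) had a median deviation of 2.20 on Keap1_KO C and 2.48 on Keap1_KO D, and -1.92 on Keap1_KO B.

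The largest differences in the other direction came from segments whose lowest value was on Keap1_KO B or Keap1_KO C. Igkv15-103 read 9.98, 12.46 and 13.14 on Keap1_KO B, C and D, against 12.57, 15.00 and 12.92 on WT A, D and F. It was 1 of 3 rows with the highest value on WT D, and its means were 11.86 ± 1.66 in Keap1_KO and 13.49 ± 1.31 in WT (SD, n = 3 each). The difference of -1.63 (limma adjusted p = 0.68) was the only one of -1 or less among the 87 rows (1.15%, against 2.63% of all rows). Igkv10-95 read 9.96, 11.86 and 15.63 against 12.19, 14.32 and 13.25, a difference of -0.77 (SE 1.45), which was -2.34 without Keap1_KO D and 0.49 without Keap1_KO B.

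Igkv19-93 was lowest on Keap1_KO C, with 9.53, 6.95 and 13.10 on Keap1_KO B, C and D, against 9.35, 11.86 and 10.31 on WT A, D and F. Igkv5-39 did the same, with 8.82, 6.79 and 13.56 against 9.49, 11.74 and 8.95. Their differences were -0.65 (SE 1.57) and -0.34 (SE 1.78), and without Keap1_KO C they turned to 0.81 and 1.13. Both segments were thus low on the Keap1_KO array on which the single-symbol rows of Igkv1-88 and Igkv9-124 were highest. Igkv12-89 (difference -0.50) and Igkv14-130 (-0.24) completed the 6 largest negative differences among the brighter rows.

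**Figure D4:**
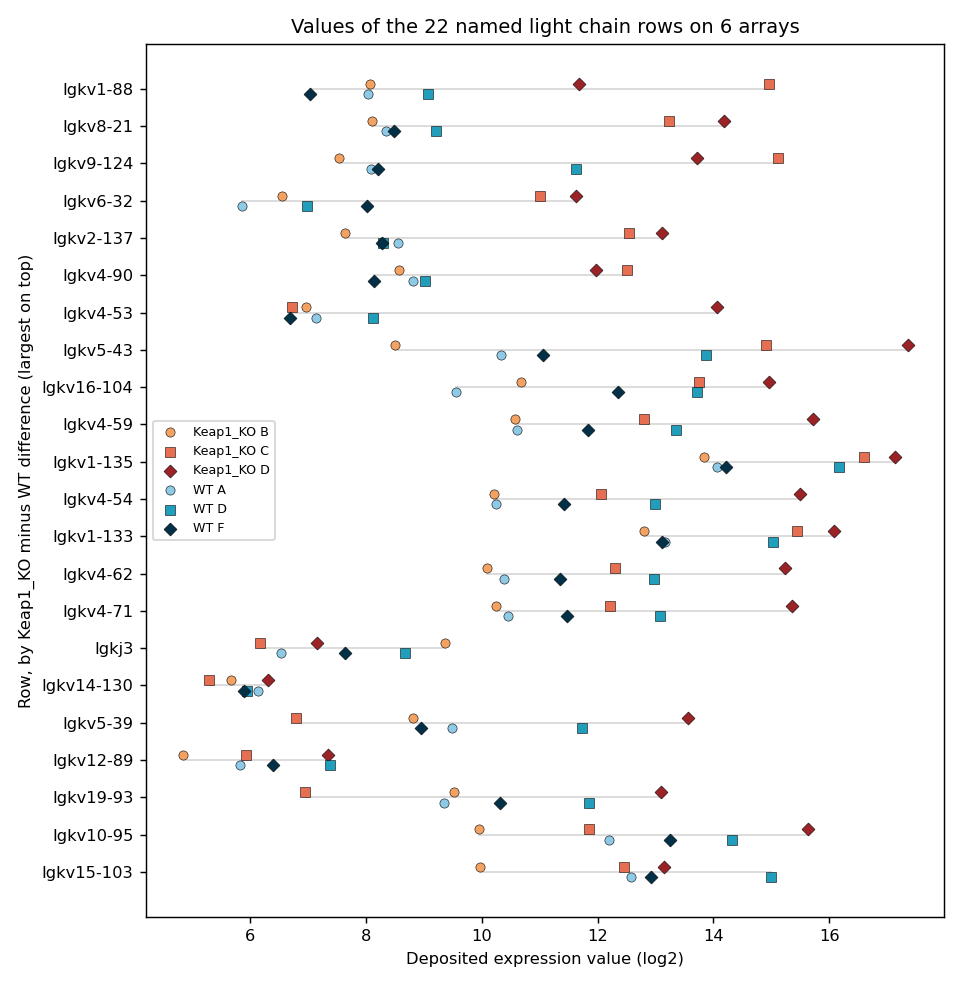
Deposited log2 value (horizontal axis) of the 22 light chain rows named by rule (vertical axis, ordered by the Keap1_KO minus WT difference) on each of the 3 Keap1_KO arrays and the 3 WT arrays. The Keap1_KO values of most rows enclose the WT values, and in the rows at the top Keap1_KO C and D lie apart from the other 4 arrays.

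Family medians showed where Keap1_KO C and WT D, the arrays of intermediate light chain level, parted. Keap1_KO C minus WT D was 1.97 for Igkv2 and 1.58 for Igkv3 (5 rows each), and 0.38 for Igkv1 (7 rows). It was -0.59 for Igkv4, -1.51 for Igkv12 (5 rows), -1.90 for Igkv13 and -2.39 for Igkv17 (3 rows each). Over all 87 rows Keap1_KO C was higher than WT D in 31 and lower in 56, with a median of -0.46. With the rows split by place along the locus into 3 stretches of 29, Keap1_KO D was highest in 25 rows of each stretch.

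The pseudogene rows were mostly flat. Their median range over 6 arrays was 0.76 (7 rows), against 4.73 for the 79 V segments, and 4 of the 7 had a range under 1. These 4 were also dim, with row means from 4.20 to 5.93, near or below the array medians, and the part of dimness in their flatness was not tested. The widest were Igkv2-116 (7.91, 12.02 and 12.22 on Keap1_KO B, C and D, against 8.34, 10.05 and 8.42 on WT A, D and F), then Igkv4-56 (7.23, 8.40 and 10.56 against 7.49, 8.97 and 8.15). Among V segments, 4 rows also had a range under 1. Of these Igkv8-34 was not dim, at 8.31, 7.93 and 7.73 in Keap1_KO and 8.03, 8.18 and 7.98 in WT.

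Igkj3, the single joining segment with a row of its own, did not follow the variable segments. It read 9.36, 6.17 and 7.16 on Keap1_KO B, C and D, against 6.54, 8.68 and 7.64 on WT A, D and F. The highest value was on Keap1_KO B, which had the lowest value in 43 of the 86 variable segments, and the lowest was on Keap1_KO C. The difference was -0.05 (SE 0.92, limma adjusted p = 0.987).

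The rows shared by several segments gave the constant regions a partial view, and they cannot be attributed to 1 gene. The row that lists Igkc among 14 symbols read 9.91, 11.56 and 12.40 on Keap1_KO B, C and D, against 10.29, 10.73 and 10.21 on WT A, D and F. Its difference was 0.88 (SE 0.62, limma adjusted p = 0.697), and Keap1_KO B lay below every WT array. The row shared by 9 lambda symbols, with the 3 constant genes Iglc1, Iglc2 and Iglc3 among them, read 12.76, 13.52 and 15.21 against 12.68, 13.99 and 12.42 (difference 0.80, SE 0.72, adjusted p = 0.73). Of the 14 rows shared by light chain symbols alone, 13 had their highest value on Keap1_KO D. With these rows added, the median difference over 101 rows was 0.86.

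Other B lineage genes were set beside the light chains, array by array. Heavy chain variable rows (Ighv, 113 rows) had their highest value on Keap1_KO D in 96. These rows deviated from their means by -0.63, -0.10 and 1.83 on average on Keap1_KO B, C and D, against -0.68, 0.10 and -0.51 on WT A, D and F. Their median difference was 0.69, and -0.02 without Keap1_KO D. Ighv1-62-2 and Ighv1-71 had identical values on all 6 arrays, so the heavy chain rows are not all independent measurements. The light chain rows had -1.27, 0.18 and 2.36 on the Keap1_KO arrays and -1.09, 0.53 and -0.70 on the WT arrays. Both kinds of variable segment thus had Keap1_KO D highest and Keap1_KO B and WT A lowest.

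Plasma cell markers (15 rows) were highest on Keap1_KO D in 13, with mean deviations of -0.32, 0.18 and 0.99 on Keap1_KO B, C and D, against -0.30, 0.14 and -0.69 on WT A, D and F (median difference 0.53). Jchain, which joins the subunits of secreted IgM and IgA, read 10.45, 12.04 and 13.29 on the Keap1_KO arrays and 11.15, 12.37 and 11.02 on the WT arrays. Keap1_KO B was the lowest array for Jchain, as it was in 43 of the 87 light chain rows. Creld2 averaged 10.52 in Keap1_KO and 9.19 in WT, and Edem1 10.89 and 10.93 in the same order. Creld2 was 1 of 2 rows of the list with all Keap1_KO values above all WT values, beside 4.08% of all rows. Irf4, a transcription factor of plasma cells that Treg cells also express, averaged 9.73 in Keap1_KO and 9.15 in WT, and Sdc1, the plasma cell surface marker CD138, 5.75 and 5.82 in the same order.

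B cell markers (18 rows) also had their highest mean deviation on Keap1_KO D, but the remaining arrays followed another order. Their mean deviations were 0.28, -0.37 and 0.84 on Keap1_KO B, C and D, against -0.24, 0.48 and -0.98 on WT A, D and F, with a median difference of 0.43. Cd79b, a signalling subunit of the B cell receptor, read 9.90, 10.95 and 12.63 on the Keap1_KO arrays and 8.44, 10.95 and 7.91 on the WT arrays, with Keap1_KO B the lowest of its group as in many light chain rows. Cd37, a tetraspanin of B cells, was highest on Keap1_KO C, with 10.43, 11.81 and 11.33 against 9.91, 10.41 and 9.27. Other rows of the list differed from these. Ms4a1, the gene of the B cell surface protein CD20, read 8.69, 6.37 and 9.44 on the Keap1_KO arrays and 8.54, 9.57 and 6.14 on the WT arrays. Pax5, the transcription factor that fixes B cell identity, read 7.54, 6.12 and 6.78 against 6.38, 7.28 and 5.98. Keap1_KO B was thus high in Pax5 while low in light chain rows. Keap1_KO C was low in Ms4a1 while it held the highest values of the single-symbol rows of Igkv1-88 and Igkv9-124. No row of the B cell and plasma cell lists lay below the array median on all 6 arrays, and none of these rows passed the adjusted threshold.

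**Figure D5:**
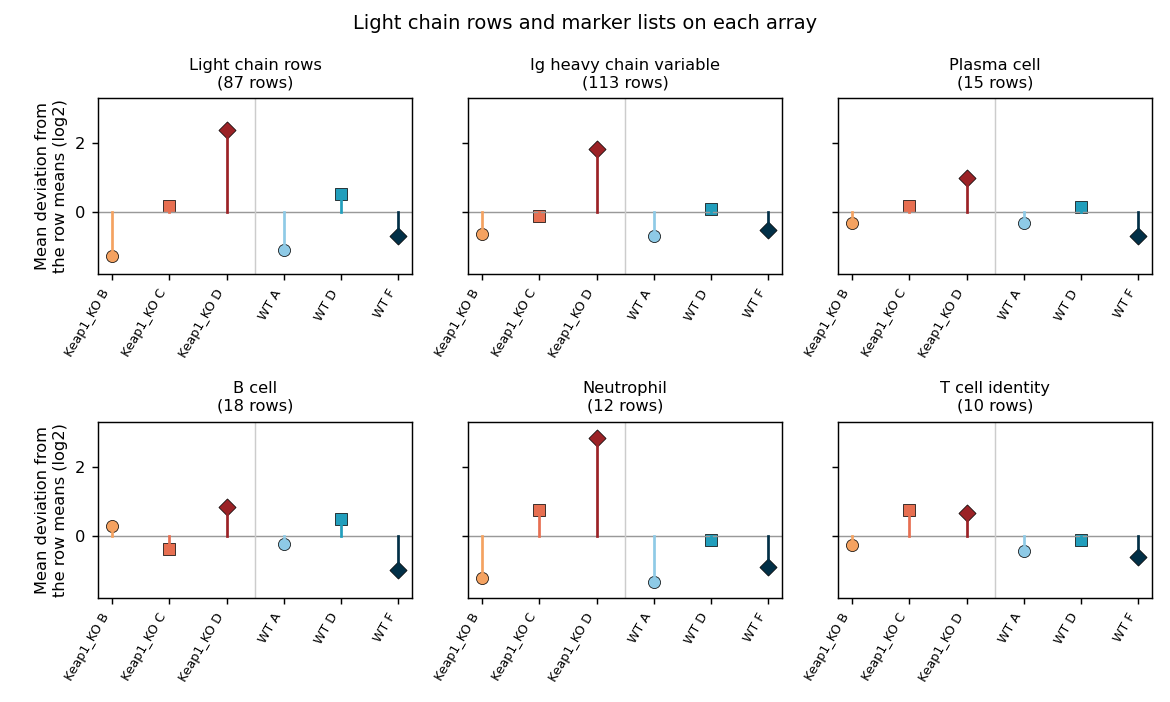
Mean deviation from the row means (vertical axis, log2) on each of the 3 Keap1_KO and 3 WT arrays (horizontal axis) for the light chain rows and 5 lists. Keap1_KO D is highest for light chains (2.36), heavy chain variable rows (1.83), plasma cell markers (0.99), B cell markers (0.84) and neutrophil genes (2.82), while Keap1_KO B is above 0 for B cell markers alone.

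Genes of other cells also differed between the arrays. Neutrophil genes (12 rows, 11 of them highest on Keap1_KO D) had mean deviations of -1.21, 0.74 and 2.82 on Keap1_KO B, C and D, against -1.32, -0.13 and -0.91 on WT A, D and F. S100a8, a calcium-binding protein of neutrophils and monocytes, read 14.92, 17.91 and 19.16 on the Keap1_KO arrays and 13.76, 17.05 and 15.63 on the WT arrays. NK cell genes (8 rows) had -0.30, -0.36 and 1.32 on the Keap1_KO arrays and -0.12, 0.96 and -1.49 on the WT arrays. Keap1_KO D was highest there and WT D second, as in 48 light chain rows, but the lowest array was WT F. T cell identity genes (10 rows) were higher on Keap1_KO C (0.74) and D (0.67) than on Keap1_KO B (-0.25) and the WT arrays (-0.45, -0.11 and -0.60 on A, D and F). The part of these differences in the light chain values was not tested, and in bulk RNA more cells of a type and more RNA per cell cannot be told apart.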

How the data were processed

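The deposited table gives a log2 expression value for every transcript cluster (here a row) on every array. The authors' software, per the submitters' processing notes, included Affymetrix Expression Console, Transcriptome Analysis Console and RMA, with no versions or roles given. RMA adjusts for background, applies quantile normalization and combines the probes of a row. Per the labels' protocols, 40 ng of total RNA was amplified into biotin-labelled cDNA. Values above 16, the log2 ceiling of a 16-bit scanner, occurred in 1268 rows, 3 of them light chain rows, so fold changes hold on the deposited scale only. No source used here names a genome build, and coordinates are left out. The number of arrays limits the precision.

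Of 65528 rows, 30354 carried 1 distinct symbol, 2118 several and 33056 none in GEO's platform annotation. The design text names a Mouse Gene array, and whether this is the array of that annotation was not settled. Symbols were updated through Entrez identifiers for 22586 rows, which changed none of the 87 members. All members matched RefSeq symbols, from which segment type and locus order were taken.

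All rows were fitted with limma 3.58.1 in R 4.3.3 (lmFit, eBayes, two-sided, Benjamini-Hochberg over 65528 rows, threshold 0.05), after a test on simulated data. Single rows also had an exact two-sided permutation test. Rows named are every joining segment row, the 10 Igkv rows with the highest mean, the 6 largest positive and 6 largest negative differences among Igkv rows at or above the median row mean, and the 4 widest ranges. From each marker list up to 4 rows with the highest mean were eligible, and Ms4a1, Pax5 and Sdc1 come from the list of cell type markers. Other light chain and marker rows were picked after their values were seen. The members and lists were chosen with earlier results of these data known. The planned motif search in promoters was not run.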

Additional observations from a re-analysis of the deposited data

How the results depend on the processing

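The count of light chain rows past the adjusted threshold was 0 under all 15 alternatives. These were a filter on dim rows (82 members left), 1 row per symbol, arrays centred on their medians, repeated quantile normalization, eBayes with trend and robust settings, array weights, symbols as annotated, each array left out in turn and, chosen after seeing the data, the shared rows added or dim members left out. The lowest adjusted p of a member was 0.0988, without Keap1_KO B. The median difference ranged from -0.17 (without Keap1_KO D) to 1.66 (without Keap1_KO B). The count of rows with all Keap1_KO values above all WT values was 2 with centred arrays, beside 7.29% of all rows. With repeated quantile normalization it was also 2, beside 5.63% of all rows, and the rows were Igkv7-33 and Igkv11-125 both times. With an array left out the count ranged from 1 to 26. It was 26 without Keap1_KO B (13.2% of all rows), 4 without WT D (10.5%), 2 without Keap1_KO C (5.73%) and 2 without WT F (6.75%). The count with all Keap1_KO values below ranged from 0 to 9. It was 9 without Keap1_KO D (11.1% of all rows), 2 without Keap1_KO B (25.0%) and 1 without WT F (15.0%), and fewer arrays separate more often by construction. Centring moved the median of all rows to 0.03 and that of the light chain rows to 0.97. Of the differences of named rows and list medians, 383 values under an alternative moved by less than the spread between arrays and 1 by more. That 1 was for the T cell receptor segments, with a median of 1.46 without Keap1_KO B against 0.93 with all arrays. The sign turned under at least 1 alternative for Igkj3, Igkv4-53, Igkv4-54, Igkv4-59, Igkv4-62, Igkv4-71, Igkv5-39, Igkv5-43, Igkv10-95, Igkv12-89 and Igkv19-93. It also turned for the medians of heavy chain variable rows (-0.02 without Keap1_KO D), NK cell genes (-0.04 without Keap1_KO D, -0.11 without WT F) and macrophage genes (-0.02 without WT F). No paired analysis was possible because the genotypes share a single replicate letter, D.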

Other observations

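Of the 8 heavy chain constant genes listed, 4 had a row of their own. Ighm, the constant region of IgM, read 17.59, 17.52 and 17.86 on Keap1_KO B, C and D, against 17.71, 17.69 and 17.56 on WT A, D and F, a range of 0.34 beside the median range of 4.46 of the light chain rows. These values lie above 16, and whether saturation limits their range was not tested. Ighe, the constant region of IgE, read 8.12 on Keap1_KO C, with 4.54 and 4.51 on Keap1_KO B and D, against 4.75, 4.64 and 5.14 on the WT arrays. Keap1_KO C was also the highest array in 6 light chain rows, Igkv1-88, Igkv9-124, Igkv4-90 and Igkv6-14 among them. Whether the Ighe value and these rows have a common source was not tested. Ighg2b, a constant region of the IgG class, read 8.64, 6.77 and 9.93 on the Keap1_KO arrays and 11.69, 9.91 and 10.62 on the WT arrays, a difference of -2.29 (SE 0.86, limma adjusted p = 0.68), and its highest value was on WT A, where the median deviation of the light chain rows was -1.18.

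Of the surrogate light chain and recombination genes (6 rows), Dntt, the polymerase that adds bases at joints of rearranged segments, read 9.54, 9.37 and 9.57 on Keap1_KO B, C and D, against 8.07, 8.38 and 6.73 on WT A, D and F (difference 1.77, SE 0.43, limma adjusted p = 0.68). Vpreb1, a component of the surrogate light chain of precursor B cells, had Keap1_KO values of 6.60, 6.62 and 6.46, against WT values of 6.07, 5.98 and 6.42. Dntt and Vpreb1 were the 2 of the 6 rows with all Keap1_KO values above all WT values, beside 4.08% of all rows. For Vpreb1 the gap was narrow, from 6.42 on WT F to 6.46 on Keap1_KO D. In both rows Keap1_KO B was not the lowest Keap1_KO array. Of the others, Vpreb3 and Rag2 had differences of 0.49 and 0.66, and Vpreb2 and Igll1 had -0.22 and -0.31. Rows of T cell receptor segments (124) had a median difference of 0.93 and mean deviations of -0.36, 0.63 and 0.80 on Keap1_KO B, C and D, against -0.63, 0.02 and -0.45 on WT A, D and F. The list pools variable and joining segments, and some joining rows ran differently. Traj25 read 12.91, 10.91 and 11.37 on Keap1_KO B, C and D, against 12.09, 12.09 and 14.55 on WT A, D and F. Traj57, another joining row, was highest on Keap1_KO D (12.38). In 17 of the 124 the lowest Keap1_KO value exceeded the highest WT value, beside 4.08% of all rows. In 2, the joining rows Traj14 and Traj55, all Keap1_KO values lay below all WT values, beside 8.45% of all rows. Some of the 17, such as Trav14d-2 and Trav14n-2, had identical values on all 6 arrays, so these rows are not independent measurements. Macrophage and monocyte genes (10 rows) had a median difference of 0.08, with Lyz2, the lysozyme gene that neutrophils share, at 9.22, 12.75 and 15.13 on the Keap1_KO arrays and 8.58, 11.73 and 8.21 on the WT arrays.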
